A study of Saccharomyces cerevisiae with 4 samples.

Results

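Transcripts of the RPS genes, which encode the proteins of the small (40S) subunit of the cytosolic ribosome of Saccharomyces cerevisiae, were compared between wild-type cultures and cultures carrying histone H3 K4,36,79R. The genes were chosen by name: an RPS gene was included where the array annotation lists a probe set for it alone, and the probe set of highest mean signal was used. This gave 33 RPS genes, out of 5656 genes with a probe set of their own, and all 33 were among the 4576 genes bright enough to be tested. They comprise 13 pairs of A and B paralogues and 7 genes without a paralogue. A further 22 RPS genes lie only on probe sets shared between A and B.

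The data are 4 Affymetrix arrays at 0 h, 2 of wild-type yeast and 2 of yeast with the H3 K4,36,79R mutant, in which arginine replaces the lysines at which Set1, Set2 and Dot1 methylate H3. All cultures grew to mid-log phase in selective galactose medium. Per the series' design text, the shift to glucose that leaves mutant H3 as the cell's sole H3 comes after this time, so at 0 h the mutant cells still made wild-type H3 as well. The comparison asks whether the RPS genes already differed between the strains before that shift. The labels do not name the parent strains or the promoters, and the array's H3 probe sets read HHT1 and HHT2 together, so they do not check the genotype.

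As background, each 40S subunit holds a single copy of each small-subunit protein on an 18S rRNA, and most of these proteins are encoded in yeast by a pair of paralogues that arose in an ancient duplication of the genome. The genes are transcribed as a regulon by Rap1, Fhl1 and Ifh1 and their output follows growth rate and nutrient signals through TOR and protein kinase A. The proteins of the head, body and platform of the subunit bind the mRNA, the decoding centre and the initiation factors.

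Wild-type replicate 2 stood apart from the other arrays for bright probe sets. Among tested genes outside the cytosolic ribosome, the log2 difference between wild-type replicate 2 and replicate 1 had a median of -0.087 over 2328 genes of mean signal under 100 and of 0.44 over 130 genes of 1000 and over. In the mutant the same medians were -0.0039 and 0.029. Of 11 bacterial and phage control probe sets with mean signals in the range of the RPS genes, 9 were higher on wild-type replicate 2 than on replicate 1, with a median difference of 0.31 against -0.092 between the mutant replicates. Several of the 11 read the same control transcript, so they are not independent. Wild-type differences for LysX were -0.15, 0.70 and 0.71. Mutant differences of the 11 ran from -0.85 for DapX-M to 0.077 for LysX-5. Ratios of 3' to 5' control probe sets, which read mRNA integrity, were for actin 1.53 and 1.40 in wild-type cultures against 1.81 and 1.53 in mutant cultures. For SPT15 they were 3.36 and 2.72 against 3.55 and 2.38, and for SRB4 3.59 and 6.82 against 5.25 and 3.96, with wild-type replicate 2 highest for SRB4. Summed deposited signals of the 5 control probe sets for 18S rRNA were 246 and 505 in wild-type cultures against 222 and 134 in mutant cultures. Those of the 5 for 25S rRNA were 1034 and 838 against 363 and 279. The part of RNA quality and rRNA in the RPS values was not tested. Strain differences of the RPS genes are therefore also given without wild-type replicate 2 where it decides a count.

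No RPS gene passed the test between the strains. Of the 33 genes, 0 passed limma's test at an adjusted p of 0.05, where 0.0437% of all tested genes did, and 0 had an unadjusted p under 0.05, where 8.52% of all tested genes did. Adjusted p-values ran from 0.628 to 0.995. Differences are log2 values, mutant minus wild type, after each array was centred on its median, and they ran from -0.41 for RPS29A to 0.33 for RPS14B, so that the widest difference was 1.33-fold. Their standard errors ran from 0.16 to 0.40. In bulk RNA, fewer cells with a transcript and less of it per cell cannot be told apart.

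The small differences leaned to one side. In the mutant 27 of 33 genes were lower, 81.8%, against 51.6% of all tested genes, and the median was -0.14 against -0.0087. The lean depended on wild-type replicate 2. Without it 10 of 33 genes were lower and the median was 0.15, whereas without wild-type replicate 1 it was 30 genes and -0.37. Leaving out mutant replicate 1 or mutant replicate 2 gave 25 and 27 lower genes, with medians of -0.14 and -0.12. Quantile normalisation, which gives all arrays 1 distribution, left 19 lower genes and a median of -0.032, and cyclic loess, which removes trends with brightness, 21 and -0.045. Among the 455 tested genes outside the cytosolic ribosome whose mean signals lie in the range of the RPS genes, 62.4% were lower, with a median of -0.048, and without wild-type replicate 2 30.5%, with a median of 0.096.

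By paralogue and probe set the counts were as follows. Of the 13 genes named A, 12 were lower with a median of -0.14, and of the 13 named B, 9 were lower with a median of -0.085. Of the 7 without a paralogue, 6 were lower with a median of -0.11. Of the 24 on probe sets without a mark of sequence shared within a family, 20 were lower with a median of -0.15, and of the 9 with that mark, 7 were lower with a median of -0.11. Without wild-type replicate 2 the numbers lower and the medians were 5 and 0.18 for A, 4 and 0.14 for B, 1 and 0.099 for genes without a paralogue, 5 and 0.16 without the mark and 5 and -0.0070 with it. For marked probe sets, signal from the paralogue cannot be told apart. The 24 without the mark include 7 whose probe set names carry a different suffix, i, and 17 with no such suffix.

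The arrays of the strains did not overlap for 6 of the 33 genes. Both mutant arrays lay below both wild-type arrays for 5, RPS29A, RPS29B, RPS26B, RPS9A and RPS1B, where 18.5% of all tested genes did so. The reverse held for RPS14B alone among the 33, against 21% of all tested genes. The strain difference exceeded the difference between the wild-type replicates for 4 genes, RPS1B, RPS9A, RPS14B and RPS20, against 35.5% of all tested genes. With quantile normalisation 11 RPS genes did so, against 38.6% of all tested genes.

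**Figure D1:**
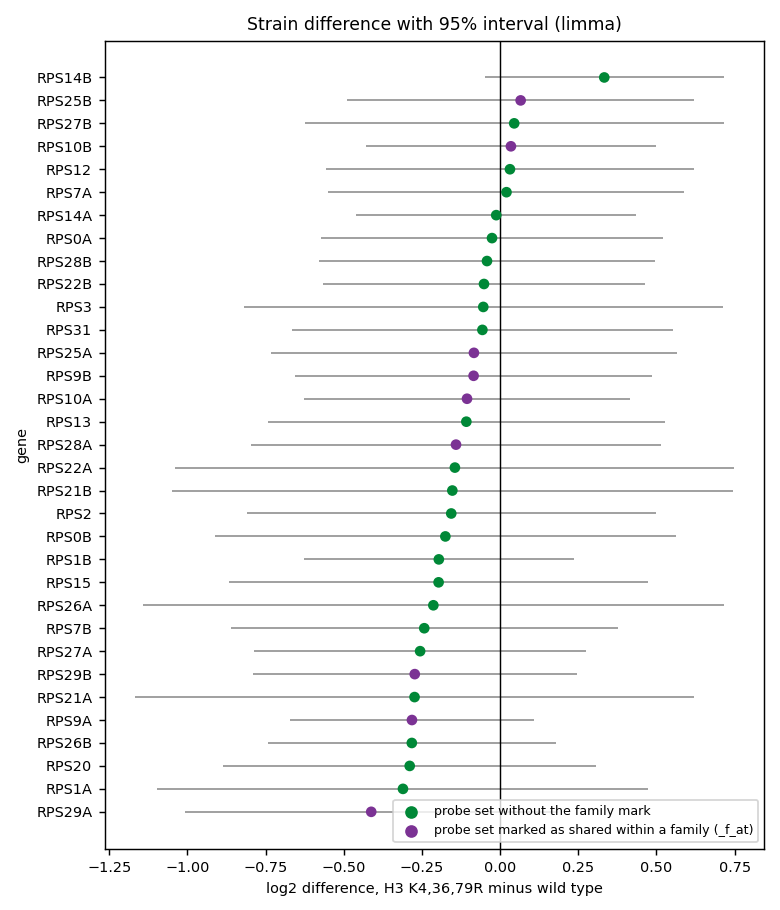
Log2 difference between the strains for each of the 33 RPS genes, mutant minus wild type, with its 95% interval from limma, ordered by size. Every interval spans 0, from RPS29A at -0.41 to RPS14B at 0.33, and purple marks the 9 genes read on a probe set that the array design marks as shared within a gene family.

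Genes of the head of the subunit, which carries the mRNA entry site and contacts the large subunit, came to 13 tested members, 10 of them lower in the mutant, with a median of -0.084 (5 and 0.099 without wild-type replicate 2). RPS3 (YNL178W) encodes a protein at the mRNA entry channel. Its median-scaled signals, deposited values plus the pseudocount of 2 brought to a common array median, were 1744 and 2901 in wild-type cultures against 2155 and 2179 in mutant cultures. The mutant arrays lay between the wild-type ones, at a difference of -0.054 (SE 0.33). RPS15 (YOL040C), whose protein is needed for export of the subunit from the nucleus, read 1400 and 2111 in wild-type cultures against 1628 and 1383 in mutant cultures, with mutant replicate 2 just under the lower wild-type array (-0.20, SE 0.29). For RPS20 (YHL015W), a head protein next to the mRNA path, signals were 1133 and 1326 in wild-type cultures against 827 and 1216 in mutant cultures. Mutant replicate 1 was low and mutant replicate 2 lay within the wild-type range, so that the difference of -0.29 (SE 0.26) was -0.011 without mutant replicate 1 and -0.57 without mutant replicate 2. RPS31 is made as a fusion to ubiquitin, and for both RPS31 and RPS12 the mutant arrays lay within the range of the wild-type arrays. RPS12 (YOR369C) read 1518 and 1850 in wild-type cultures against 1696 and 1730 in mutant cultures (0.031, SE 0.25). RPS31 (YLR167W) read 1824 and 2113 in wild-type cultures against 1938 and 1839 in mutant cultures (-0.057, SE 0.26).

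The RPS29 genes encode a zinc-binding head protein. RPS29A (YLR388W), the lowest of the 33, read 1285 and 1823 in wild-type cultures against 1105 and 1197 in mutant cultures, a difference of -0.41 (SE 0.26, limma adjusted p = 0.713). RPS29B (YDL061C) read 1123 and 1399 in wild-type cultures against 1057 and 1018 in mutant cultures, a difference of -0.27 (SE 0.22). In both genes the 2 strains did not overlap, yet the gap from the lower wild-type array to the nearest mutant array was smaller than the gap between the wild-type arrays. Both were read on family probe sets. Without wild-type replicate 2 RPS29A was at -0.16 and RPS29B at -0.11.

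The other paired head genes overlapped between the strains. RPS10B (YMR230W), one of the 4 highest genes, read 829 and 737 in wild-type cultures against 879 and 729 in mutant cultures, so replicate 1 was the higher in both strains (0.035, SE 0.20). Its partner RPS10A (YOR293W) read 1252 and 1436 in wild-type cultures against 1282 and 1211 in mutant cultures (-0.11, SE 0.22), and -0.0070 without wild-type replicate 2. RPS25B (YLR333C), of a protein known for its part in initiation on internal entry sites, read 1300 and 1568 in wild-type cultures against 1529 and 1460 in mutant cultures (0.066, SE 0.24), with both mutant arrays inside the wild-type range. RPS25A (YGR027C) read 1309 and 1952 in wild-type cultures against 1436 and 1586 in mutant cultures (-0.084, SE 0.28), again inside that range. The RPS10 and RPS25 genes were all read on family probe sets. RPS28B (YLR264W), whose protein product is known to trigger decay of its own mRNA, read 796 and 1094 in wild-type cultures against 972 and 845 in mutant cultures (-0.042, SE 0.23). RPS28A (YOR167C) read 1156 and 1841 in wild-type cultures against 1340 and 1306 in mutant cultures (-0.14, SE 0.28). The mutant arrays of both RPS28 genes lay between the wild-type arrays.

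Genes of the body of the subunit numbered 14, of which 12 were lower, with a median of -0.15 (2 and 0.16 without wild-type replicate 2). RPS2 (YGL123W), whose protein controls decoding accuracy, read 1463 and 2002 in wild-type cultures against 1349 and 1748 in mutant cultures, with replicate 2 the higher in both strains (-0.16, SE 0.28). RPS13 (YDR064W) read 1432 and 2040 in wild-type cultures against 1560 and 1611 in mutant cultures, with both mutant arrays inside the wild-type range (-0.11, SE 0.27). The RPS9 genes encode another protein of decoding accuracy. RPS9A (YPL081W) read 580 and 625 in wild-type cultures against 481 and 510 in mutant cultures, with the strains apart and the replicates close (-0.28, SE 0.17, limma adjusted p = 0.698). RPS9B (YBR189W) read 1363 and 1706 in wild-type cultures against 1491 and 1386 in mutant cultures and overlapped (-0.085, SE 0.25). Both RPS9 genes lie on family probe sets. RPS7B (YNL096C) read 633 and 1077 in wild-type cultures against 692 and 704 in mutant cultures (-0.24, SE 0.27), with its mutant arrays near wild-type replicate 1. RPS7A (YOR096W) read 1135 and 1509 in wild-type cultures against 1272 and 1385 in mutant cultures (0.020, SE 0.24). For both RPS7 genes the mutant arrays lay between the wild-type ones.

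For RPS21 and RPS22A the mutant arrays lay close together between wild-type arrays that were far apart. RPS21A (YKR057W) read 2080 and 4077 in wild-type cultures against 2458 and 2361 in mutant cultures (-0.27, SE 0.38). RPS21B (YJL136C) read 1914 and 3826 in wild-type cultures against 2473 and 2396 in mutant cultures (-0.15, SE 0.39). RPS22A (YJL190C) read 2052 and 3979 in wild-type cultures against 2642 and 2529 in mutant cultures (-0.14, SE 0.38). The protein of the RPS21 genes works with that of the RPS0 genes in rRNA maturation. RPS22B (YLR367W) read 1122 and 1306 in wild-type cultures against 1228 and 1111 in mutant cultures (-0.052, SE 0.22), with mutant replicate 2 just under the lower wild-type array. RPS0A (YGR214W) read 999 and 1330 in wild-type cultures against 1087 and 1180 in mutant cultures (-0.026, SE 0.23). RPS0B (YLR048W) read 1500 and 2535 in wild-type cultures against 1683 and 1772 in mutant cultures (-0.18, SE 0.32). In both RPS0 genes the mutant arrays lay between the wild-type arrays. RPS27A (YKL156W) read 742 and 1056 in wild-type cultures against 780 and 704 in mutant cultures (-0.26, SE 0.23) with mutant replicate 2 below both wild-type arrays. The RPS27A difference was -0.00099 when wild-type replicate 2 was left out. RPS27B (YHR021C) read 1410 and 2108 in wild-type cultures against 1718 and 1841 in mutant cultures (0.045, SE 0.29), with both mutant arrays inside the wild-type range.

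The 6 genes of the platform, where the exit of the mRNA lies, included the highest member of all. Of them 5 were lower, with a median of -0.20 (3 and 0.057 without wild-type replicate 2). RPS14B (YJL191W) encodes the minor source of a platform protein that is known to bind the RPS14B pre-mRNA and repress it. Its signals were 427 and 465 in wild-type cultures against 555 and 569 in mutant cultures. Both mutant arrays were above both wild-type arrays by more than either strain's replicates differed, and the difference of 0.33 (SE 0.16, 95% interval -0.048 to 0.71) did not pass (limma adjusted p = 0.628). Leaving out an array gave from 0.27 to 0.39, and the scalings tried gave from 0.23 without centring to 0.40 on bright genes. RPS14A (YCR031C), the main source of the same protein, read 918 and 886 in wild-type cultures against 858 and 932 in mutant cultures, without separation (-0.012, SE 0.19). RPS14B and RPS22A are neighbouring genes in the RefSeq order, the single such case among the RPS genes, and their differences were 0.33 and -0.14.

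RPS1A (YLR441C), for a protein beside the mRNA exit, read 1330 and 2529 in wild-type cultures against 1442 and 1517 in mutant cultures (-0.31, SE 0.34), with both mutant arrays close to wild-type replicate 1. RPS1B (YML063W) read 883 and 897 in wild-type cultures against 760 and 794 in mutant cultures (-0.20, SE 0.19), with the strains apart and the wild-type replicates nearly equal. RPS26A (YGL189C), of a late-joining platform protein delivered by the chaperone Tsr2, read 1445 and 3281 in wild-type cultures against 1842 and 1914 in mutant cultures (-0.21, SE 0.40), the widest wild-type spread of the 33. RPS26B (YER131W) read 410 and 567 in wild-type cultures against 409 and 384 in mutant cultures (-0.28, SE 0.20), where mutant replicate 1 lay just below the lower wild-type array. Without wild-type replicate 2 it was at -0.048.

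**Figure D2:**
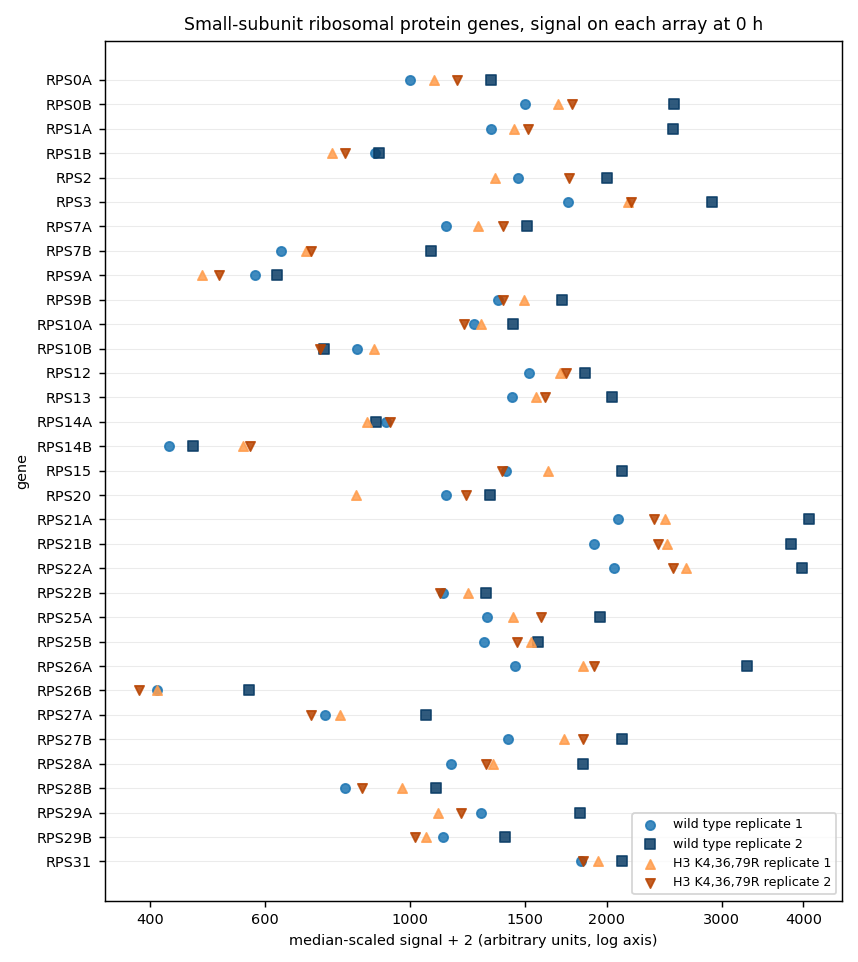
Median-scaled signal plus 2 of each RPS gene on the 4 arrays (log axis), genes in numerical order. Wild-type replicate 2 is the highest array for most genes, such as RPS26A at 3281, and RPS14B is the gene whose mutant arrays both lie above the wild type; levels of different genes are on different probe sets and are not comparable.

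No RPS pair showed a strain difference in one paralogue that set it apart from the other by the test. For each pair the log2 ratio of A over B was taken within each array, which cancels the scale of the array, and its strain difference was tested over all 33 A and B gene pairs with both members tested, 13 of them RPS pairs. Of the 13, 0 passed at an adjusted p of 0.05, against 0% of all 33 pairs, and 0 of the 33 had an unadjusted p under 0.05. Strain differences of the ratio ran from -0.35 to 0.26, with standard errors from 0.20 to 0.33 and limma adjusted p-values of 0.989. The 95% intervals reached from -0.91 to 0.81, so these 4 arrays do not show that paralogues act alike. In 8 pairs both genes were lower in the mutant, in 5 the genes had opposite signs, and in 0 both were higher. The A gene had the lower difference in 10 of 13 pairs, beside 66.7% of all 33 pairs. That count was 6 when wild-type replicate 2 was left out, and 11, 10 and 11 when wild-type replicate 1 or either mutant array was. The median strain difference of the ratio was -0.12 over the RPS pairs and -0.093 over all 33 pairs.

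The pair farthest apart was RPS14, with A over B log2 ratios of 1.10 and 0.93 in wild-type cultures against 0.63 and 0.71 in mutant cultures. The ratio was lower on both mutant arrays, with a strain difference of -0.35 (SE 0.20, 95% interval -0.84 to 0.15). For RPS27 the ratios were -0.93 and -0.998 in wild-type cultures against -1.14 and -1.39 in mutant cultures, a difference of -0.30 (SE 0.21, 95% interval -0.81 to 0.21). In RPS7 the ratio was higher in the mutant, at 0.84 and 0.49 in wild-type cultures against 0.88 and 0.98 in mutant cultures, a difference of 0.26 (SE 0.22, 95% interval -0.28 to 0.81). Without wild-type replicate 2 the RPS7 difference was 0.086, and without wild-type replicate 1 0.44. These 3 pairs, with RPS21, are the 4 of 13 whose ratios did not overlap between the strains, beside 30.3% of all 33 pairs. RPS7 carries probe sets without a shared-sequence mark in both genes, as do RPS14 and RPS27. The ratios of RPS9 were -1.23 and -1.45 in wild-type cultures against -1.63 and -1.44 in mutant cultures, with overlap and a difference of -0.20 (SE 0.21, 95% interval -0.72 to 0.32). RPS26 and RPS22 had the smallest strain differences of the ratio, although their ratios differed widely within the wild type. For RPS26 they were 1.82 and 2.53 in wild-type cultures against 2.17 and 2.32 in mutant cultures, a difference of 0.069 (SE 0.29, 95% interval -0.63 to 0.77). For RPS22 they were 0.87 and 1.61 in wild-type cultures against 1.10 and 1.19 in mutant cultures, a difference of -0.093 (SE 0.29, 95% interval -0.80 to 0.61). In both pairs the mutant ratios lay between those of the wild-type replicates.

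**Figure D3:**
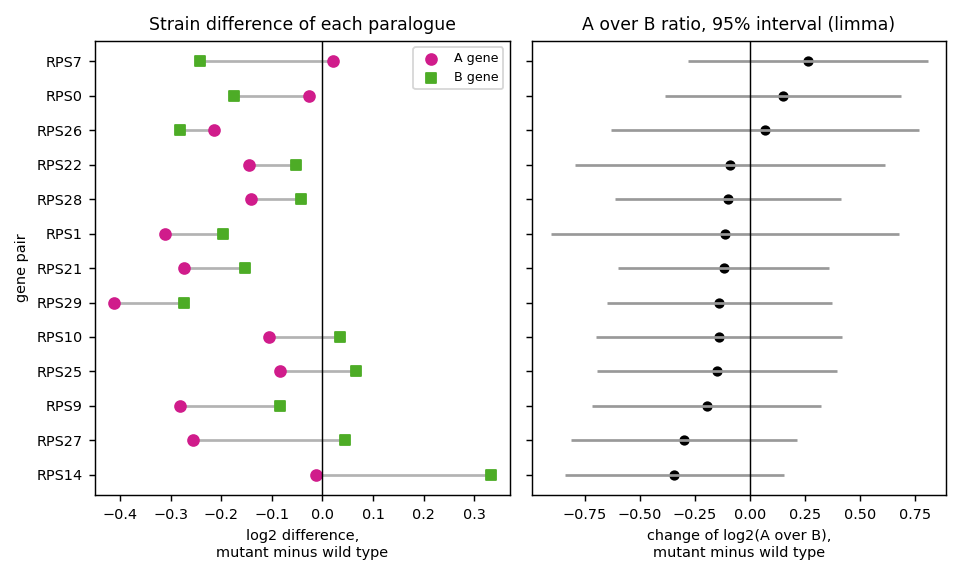
Left, strain difference (log2, mutant minus wild type) of the A gene (circles) and the B gene (squares) of each RPS pair; right, change of the log2 A over B ratio with its 95% interval. All 13 intervals span 0, from RPS14 at -0.35 to RPS7 at 0.26.

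The largest contrast in these genes was between the wild-type replicates. Wild-type replicate 2 was higher than replicate 1 for 31 of 33 genes, against 53.8% of all tested genes. The median difference was 0.46 on the log2 scale, against 0.038 over all tested genes. The brightest probe set of a gene was chosen by a mean that includes wild-type replicate 2. With the mean over each gene's probe sets the RPS median was 0.32. Wild-type replicate 2 was higher by 25% or more for 21 of the 33, against 22.9% of all tested genes. Replicate 1 was higher by as much for 0, against 20.4%. The mutant replicates differed by a median of 0.026, with 2 genes, RPS20 and RPS2, higher by 25% or more on replicate 2, against 9.09% of all tested genes. None was higher by as much on mutant replicate 1, against 7.47%. These are differences between single arrays and carry no test.

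RPS26A differed most between the wild-type replicates, by 1.18, followed by RPS21B at 1.00 and RPS21A at 0.97. The same genes differed by 0.056, -0.046 and -0.058 between the mutant replicates. All 3 were read on probe sets with the name suffix i, as was RPS1B at 0.023, while RPS22A at 0.96 was not. A second probe set of RPS26A gave a wild-type gap of 0.56. A probe set shared by RPS21A and RPS21B went the other way between the wild-type replicates, at -0.46, from signals of 1272 and 925. The closest wild-type replicates were those of RPS1B at 0.023, RPS14A at -0.051 and RPS9A at 0.11, and replicate 1 was the higher for RPS14A and RPS10B (-0.17). Paralogues did not share the gap evenly. It was 0.93 for RPS1A and 0.023 for RPS1B, 0.96 for RPS22A and 0.22 for RPS22B, and 1.18 for RPS26A and 0.47 for RPS26B. In 10 of 13 pairs the gene on the brighter probe set had the larger wild-type gap, but brightness was a mean that includes wild-type replicate 2. The median size of the A to B discrepancy was 0.31 between the wild-type replicates and 0.15 between the mutant replicates, against 0.14 between the strains. The replicate values compare single arrays and the strain value compares means of 2 arrays, so their sizes are not like for like.

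**Figure D4:**
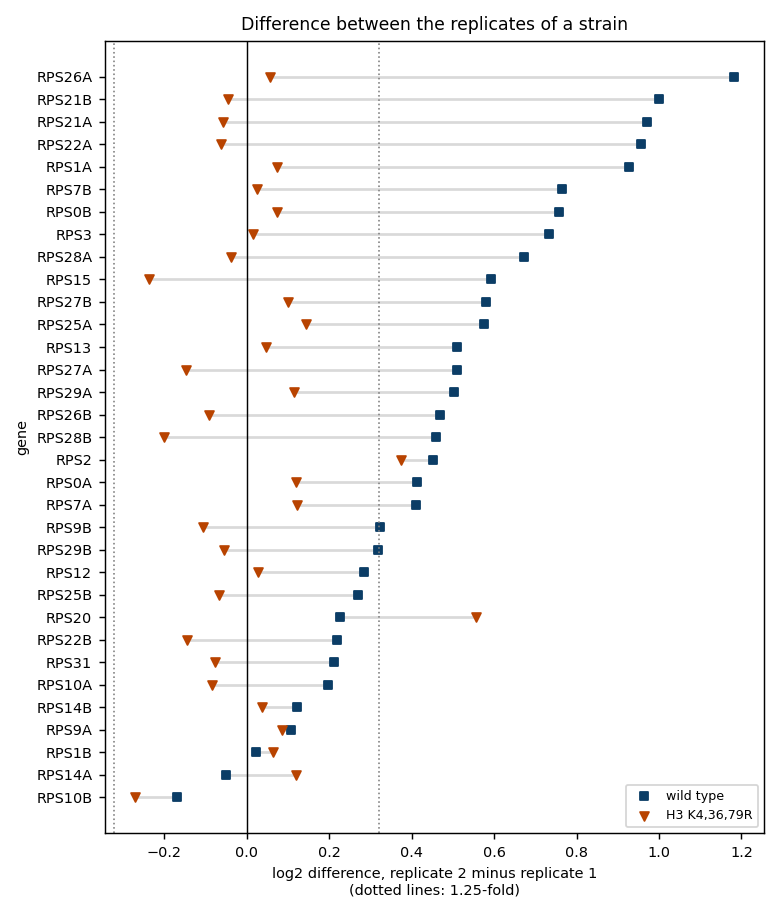
Log2 difference between replicate 2 and replicate 1 for each RPS gene, in the wild type (squares) and the mutant (triangles), ordered by the wild-type value; dotted lines mark a 25% difference. The wild-type gaps run from -0.17 to 1.18 and the mutant gaps from -0.27 to 0.56.

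The wild-type gap was larger at higher signal, for genes within and outside the ribosome. Across the 33 RPS genes its Spearman correlation with mean signal was 0.63, a description over genes that share 2 arrays. Mean signal includes wild-type replicate 2, so a high reading on that array raises both the signal and the gap. The 9 RPS genes of mean signal from 300 to 1000 had a median wild-type gap of 0.12, and 607 genes outside the cytosolic ribosome in that range had 0.20. At 1000 and over the medians were 0.51 for 24 RPS genes and 0.44 for 130 other genes, and 24 of 24 and 126 of 130 were higher on replicate 2. The bacterial and phage controls in the range of the RPS genes had wild-type gaps from -0.51 to 1.00, and the 2 given next were chosen after their values were seen. The CreX-3 probe set, for a phage transcript, read 774 and 1544 in wild-type cultures against 766 and 676 in mutant cultures. LysX-M, for a bacterial one, read 2036 and 3321 against 2586 and 2499. After quantile normalisation the RPS genes' median wild-type gap was -0.037, with 16 of 33 genes higher on replicate 2, and after cyclic loess 0.048 and 18. When the arrays were centred on bright genes outside the ribosome, a setting chosen after seeing the data, it was 0.21 and 24.

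**Figure D5:**
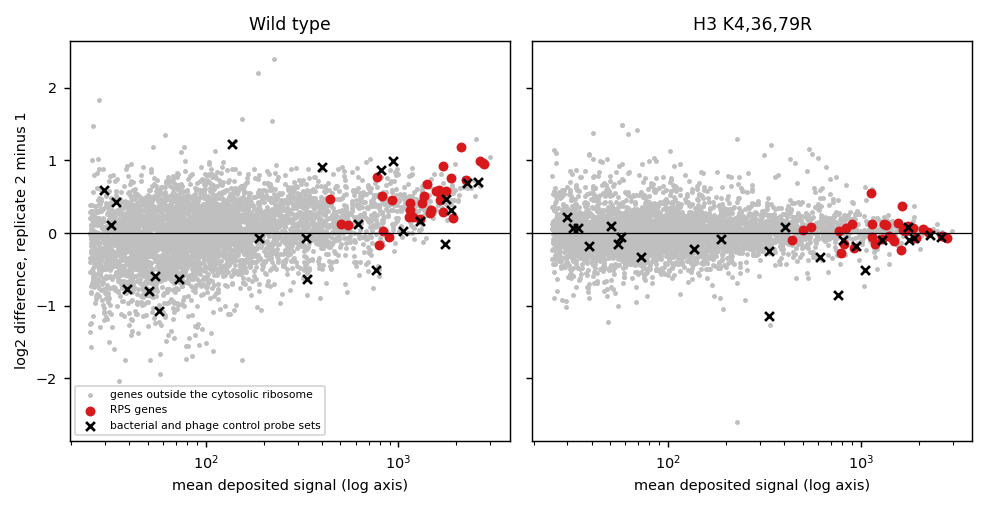
Log2 difference between replicate 2 and replicate 1 against mean deposited signal (log axis), in the wild type (left) and the mutant (right), for tested genes outside the cytosolic ribosome (grey), the 33 RPS genes (red) and bacterial and phage control probe sets (crosses). In the wild type the grey cloud and the RPS genes rise at the bright end, to medians of 0.44 and 0.51 at signals of 1000 and over, while the mutant clouds stay level.

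Further probe sets of the same genes gave a check on single readings. Of the 33 genes, 13 had several probe sets of their own. Leaving out a probe set of RPS10B under the signal floor of the test, 12 genes remained, and in 11 of these all of them gave the same sign of the strain difference. RPS0B was at -0.18 on the probe set used and at -0.51 on a family probe set, the widest spread, and RPS28A at -0.14 and -0.44. The probe sets of RPS28B took opposite signs, at -0.042 and 0.079. The 2 readings of RPS7B, -0.24 and -0.25, and of RPS26A, -0.21 and -0.20, were close in strain difference. Their wild-type gaps were not, at 1.18 and 0.56 for RPS26A. For RPS7A the gap was 0.41 on one and -0.098 on the other, and for RPS25B 0.27 and -0.63.

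The 21 probe sets shared between A and B are annotated to both genes of a pair. They cover 15 pairs, among them the 11 pairs with no probe set of their own. How much each gene gives to a shared signal is not known. In a separate fit of 2123 shared, unnamed and control probe sets 0 of the 21 passed by limma, where 0.0471% of all fitted there did, and 1 had an unadjusted p under 0.05, where 7.3% did. In the mutant 13 of the 21 were lower and the median was -0.065, and without wild-type replicate 2 these were 7 and 0.044. Their median wild-type gap was 0.29, with 18 of 21 higher on replicate 2. The shared probe set of RPS9A and RPS9B was the lowest, at -0.71 (SE 0.30, limma adjusted p = 0.666), from signals of 287 and 365 in wild-type cultures against 193 and 203 in mutant cultures, with both mutant arrays below both wild-type arrays. RPS9A and RPS9B on their own probe sets were at -0.28 and -0.085. The 3 shared probe sets of RPS23A and RPS23B, whose protein lies at the decoding centre, gave -0.28, -0.41 and -0.092. RPS6A and RPS6B, for the substrate of TOR-linked kinases, gave 0.039 (SE 0.24), RPS18A and RPS18B 0.099 and RPS4A and RPS4B -0.065. Shared probe sets of RPS16A and RPS16B ran from -0.45 to 0.29, the highest of the 21. That highest value came from signals of 116 and 48 in wild-type cultures against 113 and 74 in mutant cultures. The shared probe set of RPS21A and RPS21B was at 0.16, where their own probe sets were at -0.27 and -0.15. Those of the RPS0 and RPS1 pairs were at -0.12 and -0.22.

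Large-subunit protein genes of the cytosolic ribosome were described by the same measures. Of these, 41 of 48 tested genes were lower, with a median of -0.15, beside 51.6% and -0.0087 over all tested genes, and by limma 0 passed and 0 had an unadjusted p under 0.05, where 0.0437% and 8.52% of all tested genes did. Without wild-type replicate 2 the number lower and the median were 16 and 0.062. Their median wild-type gap was 0.43 against 0.46 for the RPS genes. The widest were RPL7B (-1.53, SE 0.69, with a wild-type gap of 2.59) and RPL38 (-0.49) on the lower side and RPP2B (0.18) and RPL39 (0.16) on the higher. Small-subunit proteins of the mitochondrial ribosome also leaned lower, 28 of 32 with a median of -0.097 and 0 past the test (4 with an unadjusted p under 0.05, which 8.52% of all tested genes had), but their median wild-type gap was 0.054. RSM25 (-0.70) and MRPS5 (-0.54) were lowest and RSM22 (0.30) and MRP51 (0.058) highest. No test of a difference between these lists and the RPS genes was made.

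None of the listed genes that regulate the RPS genes or assemble, chaperone or modify the subunit passed limma's test. At an unadjusted p under 0.05 there were 0 of 13 regulators, 3 of 16 late assembly factors, 0 of 8 chaperones and 1 of 5 modifiers, where 8.52% of all tested genes fell. Among 13 tested regulators of ribosomal protein genes, 6 were lower, with a median of 0.0035, and without wild-type replicate 2 the values were 12 and -0.15. The coactivator gene IFH1 was highest at 0.27, followed by ESA1, of a histone acetyltransferase, at 0.16. RRP7, of a complex that holds Ifh1 (-0.35), and the TOR-regulated kinase gene SCH9 (-0.33, with mutant replicates 1.03 apart) were lowest. FHL1 and CRF1 were not tested. Of 16 tested late assembly factors of the subunit 12 were lower (median -0.14), with ENP1 at -0.72 (SE 0.18, limma adjusted p = 0.312) and FAF1 at -0.68, while TSR1 stood at 0.90 with wild-type replicates 1.57 apart and HRR25 at 0.038. The receptor-like 40S protein gene ASC1 was at -0.060 (SE 0.31) and STM1, of a protein that clamps idle ribosomes, at 0.020 (SE 0.24), both with small differences beside wild-type gaps of 0.62 and 0.27.

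Dedicated chaperones of ribosomal proteins included 6 lower genes of 8, some of which serve the large subunit (median -0.19). YAR1, which guards RPS3's product, was at 0.064 and FAP7, which serves that of RPS14, at 0.022, while NAP1, also a histone chaperone, was at -0.41 and SQT1, a large-subunit chaperone, at -0.78 with mutant replicates 1.30 apart. All 5 tested genes of enzymes that modify small-subunit proteins were lower, from the acetyltransferase gene ARD1 at -0.73 (limma adjusted p = 0.452) and TPA1 at -0.31 to NAT1 at -0.17 and SFM1, of the methyltransferase of RPS3's product, at -0.13. The general stress response list, which is known to move opposite to ribosomal protein genes in stressed yeast, had 21 of 28 genes higher in the mutant (median 0.27). SIP18, of a hydrophilin, rose and was the single gene of the list to pass (1.64, limma adjusted p = 0.0202), where 0.0437% of all tested genes did. In the list 8 of 28 had an unadjusted p under 0.05, beside 8.52%, and 13 had both mutant arrays above both wild-type arrays, beside 21%. The list was chosen with earlier results of these data known, so these counts are no test of it. Leaving out wild-type replicate 1 left 15 of 28 lower (median -0.0056) and leaving out wild-type replicate 2 left 3 (median 0.39). ALD3 was at 1.51, and SOD2 (-0.25) and HSP42 (-0.17) were lowest. Its wild-type gap had a median of 0.29, in the same direction as that of the RPS genes, and its part in the RPS values was not tested.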

How the data were processed

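Total RNA of 4 yeast cultures, 2 per strain at 0 h, was hybridised to Affymetrix arrays. The authors deposited a linear intensity for every probe set. MAS5 is named in the submitters' processing notes, and its version, its scaling target and what followed it are not given in the sources used. Titles of the samples gave the groups and replicate numbers. The replicates are called cultures in the design text alone, so p-values measure the spread between these arrays, which may be technical, and 2 arrays per group limit the precision.

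The table held 9335 probe sets, of which the platform annotation pairs 6504 with 1 gene, 328 with several genes and 2443 with none, and 60 are controls. Gene IDs matched all 6504 to RefSeq's R64 table. Log2 was taken after adding a pseudocount of 2, set from the low end of the signals. Probe sets of 1 gene were left out where their mean signal was among the lowest 25%, the brightest per gene was kept, and each array was centred on its median. The strains were compared across all 4576 genes with limma 3.58.1 in R 4.3.3 (lmFit, eBayes with trend, two-sided, Benjamini-Hochberg adjustment over all genes) with 2 residual degrees of freedom (and 5.63 from the prior). The A over B ratios were fitted likewise over 33 pairs, without a trend. Both fits were also run on simulated data with known changes. Those changes were larger than the RPS differences reported here, so the runs do not show what the fits can detect at that size.

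All RPS genes with a probe set of their own are members, and values on every array are given by a rule for the highest, lowest and most divergent genes and pairs and for all genes without a paralogue. Those members, the gene lists and this rule were chosen with earlier results of these data known, and the division into head, body and platform is textbook knowledge applied after the values were seen. Suffixes of probe set names gave the marks of shared sequence, and the suffix i was not counted as such a mark. Alternatives covered the scaling, pseudocount, filter, probe set choice, variance trend, replicate block, arrays left out (for lists and subsets, added after seeing the data) and members on shared-sequence probe sets. Python 3.11.15 with pandas 2.3.3, numpy 2.4.6, scipy 1.17.1 and matplotlib 3.10.9 was used for tables and figures. No sequence of the genes or probes was used here.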

Additional observations from a re-analysis of the deposited data

How the results depend on the processing

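No RPS gene passed under the alternatives run, and the lowest adjusted p among them was 0.0759, without wild-type replicate 1. Over all genes 2 passed, 11 without centring, 9 with quantile normalisation, 8 with cyclic loess, 7 with the lowest 50% left out, 8 with the mean of probe sets, 1 without an intensity trend, 7 when centred on bright genes (a setting added after seeing the data), and 1 to 21 without an array. With the replicate block 32 genes passed, 0 of them RPS genes. Nothing in the labels pairs the numbered cultures, and the replicate differences of the strains correlated at 0.044 across genes. With quantile normalisation and cyclic loess RPS14B and RPS29A had an unadjusted p under 0.05, with adjusted p-values from 0.401 and 0.443 up. Without centring the median of all genes was -0.11 and that of the RPS genes -0.25. Fits without an array have a single residual degree of freedom and take a lone array to vary like the other group. The median wild-type replicate difference of the RPS genes was -0.037, 0.048 and 0.21 with quantile normalisation, cyclic loess and bright-gene centring, against 0.46. With the mean of probe sets it was 0.32. Without an array the RPS median strain difference ran from -0.37 to 0.15 and the number of lower genes from 10 to 30. Of all A and B pairs 0 to 2 passed without an array, the 2 being RPL36 and RPL7 without wild-type replicate 1. With other pseudocounts or filters 27 RPS genes were lower, and 20 of 24 with members on shared-sequence probe sets left out. The cause of these shifts was not tested. Centring cancels in the A over B ratio, whether on all genes or on bright genes, and without it 0 of all A and B pairs passed. Replicate differences have no value with the block or without an array.

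With quantile normalisation the sign turned for RPS0A (0.083), RPS14A (0.071), RPS21B (0.018), RPS22B (0.042), RPS25A (0.0032), RPS28B (0.033), RPS3 (0.035). With cyclic loess the sign turned for RPS0A (0.035), RPS14A (0.038), RPS22B (0.011), RPS28B (0.0097), RPS3 (0.037), RPS31 (0.028). With bright-gene centring the sign turned for RPS0A (0.045), RPS14A (0.059), RPS22B (0.019), RPS28B (0.029), RPS3 (0.017), RPS31 (0.014). Without centring the sign turned for RPS10B (-0.072), RPS12 (-0.075), RPS25B (-0.040), RPS27B (-0.061), RPS7A (-0.086). With the mean of probe sets the sign turned for RPS28B (0.017).

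Without one array or another these uncalled strain differences took either sign: RPS0A -0.23 to 0.18, RPS0B -0.55 to 0.20, RPS10B -0.10 to 0.17, RPS12 -0.11 to 0.17, RPS13 -0.36 to 0.15, RPS14A -0.072 to 0.047, RPS15 -0.49 to 0.099, RPS1A -0.77 to 0.15, RPS2 -0.38 to 0.070, RPS21A -0.76 to 0.21, RPS21B -0.65 to 0.35, RPS22A -0.62 to 0.33, RPS22B -0.16 to 0.058, RPS25A -0.37 to 0.20, RPS25B -0.070 to 0.20, RPS26A -0.80 to 0.38, RPS27B -0.25 to 0.34, RPS28A -0.48 to 0.19, RPS28B -0.27 to 0.19, RPS3 -0.42 to 0.31, RPS31 -0.16 to 0.050, RPS7A -0.19 to 0.23, RPS7B -0.63 to 0.14, RPS9B -0.25 to 0.077. The A over B changes that did so were RPS0 -0.023 to 0.32, RPS1 -0.57 to 0.34, RPS10 -0.32 to 0.043, RPS22 -0.46 to 0.28, RPS25 -0.30 to 0.0036, RPS26 -0.29 to 0.43, RPS28 -0.20 to 0.0067. Those that kept their sign ran over these ranges: RPS10A -0.20 to -0.0070, RPS14B 0.27 to 0.39, RPS1B -0.23 to -0.16, RPS20 -0.57 to -0.011, RPS26B -0.52 to -0.048, RPS27A -0.51 to -0.00099, RPS29A -0.66 to -0.16, RPS29B -0.43 to -0.11, RPS9A -0.34 to -0.23. The ratios that did were RPS14 -0.43 to -0.26, RPS21 -0.14 to -0.11, RPS27 -0.42 to -0.18, RPS29 -0.23 to -0.046, RPS7 0.086 to 0.44, RPS9 -0.30 to -0.090.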
